A study of Mus musculus with 12 samples.

Results

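Glutathione synthesis, turnover and use was followed through 10 genes, chosen by symbol from the pathway: Gclc, Gclm, Gss, Gsr, Gpx1, Gpx4, Slc7a11, Ggct, Chac1 and Chac2. All 10 were found among the 24982 gene symbols of the series, and 9 were high enough to be tested, the exception being Slc7a11. RNA was measured in B lymphocytes taken from the spleens of mice at 6 weeks of age, with polyadenylated RNA sequenced from 12 libraries. WT mice were C57BL/J6 animals with neither genetic change. Eμ-Myc mice carried a Myc transgene under the immunoglobulin heavy chain enhancer, which drives Myc in the B cell lineage. Eμ-Myc; PRPS2 KO mice carried the same transgene and also lacked PRPS2, a phosphoribosyl pyrophosphate synthetase that supplies the sugar phosphate for nucleotide synthesis. Each group had 4 libraries, numbered 1 to 4 as biological replicates. The design text asks which programmes Myc alters and whether changes in redox balance after loss of PRPS2 meet those programmes.

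Glutathione is a tripeptide of glutamate, cysteine and glycine and the main small thiol of the cell. Cystine enters through the exchanger whose transport subunit is Slc7a11. Glutamate cysteine ligase, made of the catalytic subunit Gclc and the modifier subunit Gclm, performs the rate-limiting step of synthesis, and glutathione synthetase (Gss) adds glycine. Glutathione peroxidases such as Gpx1 and Gpx4 oxidise glutathione to remove peroxides, and glutathione reductase (Gsr) returns the oxidised form to the reduced form with NADPH. Chac1 and Chac2 cleave glutathione inside the cell and release 5-oxoproline, and Ggct releases 5-oxoproline from gamma-glutamyl amino acids. The transcription factor NRF2 acts through antioxidant response elements at many of these genes, and ATF4 is known to act at Chac1 and Slc7a11.

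The promoters shown are those of Gclm, Gss and Chac2, which were higher in Eμ-Myc than in WT cells, and those of Chac1 and Slc7a11, which were low and uneven between libraries. RefSeq promoters on GRCm38.p6, 250 bases before to 50 bases after an annotated start, were matched by symbol to 8 of the 10 genes. Gclc and Gsr had no match. Each sequence runs 5′ to 3′ on the strand of its gene, and capitals mark matches to a searched motif.
Gclm, chr3:122245307-122245606, plus strand: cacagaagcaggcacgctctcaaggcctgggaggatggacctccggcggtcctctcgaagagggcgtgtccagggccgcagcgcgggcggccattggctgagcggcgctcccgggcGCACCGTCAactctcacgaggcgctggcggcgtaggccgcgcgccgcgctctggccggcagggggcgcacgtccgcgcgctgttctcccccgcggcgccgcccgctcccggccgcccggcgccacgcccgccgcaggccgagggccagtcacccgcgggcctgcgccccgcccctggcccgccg
Gss, chr2:155592761-155593060, minus strand: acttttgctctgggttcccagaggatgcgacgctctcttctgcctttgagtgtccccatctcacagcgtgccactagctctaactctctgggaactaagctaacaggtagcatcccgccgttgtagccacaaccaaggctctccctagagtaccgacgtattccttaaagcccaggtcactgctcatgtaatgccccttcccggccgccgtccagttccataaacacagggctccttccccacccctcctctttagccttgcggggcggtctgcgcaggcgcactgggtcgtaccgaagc
Chac2, chr11:30986316-30986615, minus strand: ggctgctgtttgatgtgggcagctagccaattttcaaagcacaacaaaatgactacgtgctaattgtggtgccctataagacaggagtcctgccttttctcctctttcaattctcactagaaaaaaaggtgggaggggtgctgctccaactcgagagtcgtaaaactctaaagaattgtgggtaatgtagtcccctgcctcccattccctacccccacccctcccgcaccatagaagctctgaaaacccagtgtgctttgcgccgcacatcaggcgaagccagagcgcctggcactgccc
Chac1, chr2:119350992-119351291, plus strand: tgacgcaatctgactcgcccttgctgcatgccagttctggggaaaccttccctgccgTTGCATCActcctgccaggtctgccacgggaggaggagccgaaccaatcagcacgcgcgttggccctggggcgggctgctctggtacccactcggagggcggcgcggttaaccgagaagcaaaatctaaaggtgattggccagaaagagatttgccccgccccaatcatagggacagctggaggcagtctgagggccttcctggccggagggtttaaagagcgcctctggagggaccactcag
Slc7a11, chr3:50443564-50443863, minus strand: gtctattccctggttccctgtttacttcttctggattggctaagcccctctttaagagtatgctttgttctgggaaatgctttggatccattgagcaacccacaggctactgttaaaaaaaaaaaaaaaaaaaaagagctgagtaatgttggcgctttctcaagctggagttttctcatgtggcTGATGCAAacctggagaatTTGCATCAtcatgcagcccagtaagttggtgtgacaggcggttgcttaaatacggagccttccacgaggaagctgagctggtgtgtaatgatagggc

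Motifs were searched on both strands, with overlapping matches allowed. The antioxidant response element core TGACNNNGC, present in 12.4% of all 32851 RefSeq promoters, matched in Gclm at -134 bases from the start and in Ggct at -174 and 5. The CHOP-ATF4 composite core TGATGCAA, present in 0.895% of promoters, matched in Slc7a11 at -66 and -47 and in Chac1 at -193. The E-box CACGTG, present in 7.15% of promoters, matched in none of the 8 genes within these windows. The promoters of Gss and Chac2 held none of the 3 motifs. These matches describe letters in the sequence and are not evidence of binding.

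The genotypes were checked first on Prps2 and Myc. Scaled coverage, the deposited coverage of a gene divided by a factor per library, was 97.9 to 140.01 for Prps2 in WT, 199 to 287 in Eμ-Myc and 16.2 to 18.3 in the knockout. For Myc it was 226 to 346, 1559 to 2302 and 1099 to 3282 in the same order of groups. B cell markers summed to 6545 to 12817 in WT, 7802 to 9543 in Eμ-Myc and 7188 to 7812 in the knockout, with all 8 of 8 markers above 0 in every library. The knockout libraries stood apart in pairs: over 7782 genes the median absolute log2 difference was 0.167 between replicates 1 and 2 and 0.0689 between 3 and 4, but 0.436 to 0.589 across these pairs, against 0.0791 to 0.291 within the other groups. Knockout replicates 1 and 2 were lower in proliferation markers (summed 1198 and 1666) than replicates 3 and 4 (3550 and 3577), and higher in myeloid markers (15378 and 11469 against 3017 and 1315). T cell markers (558 and 594 against 30.6 and 28.6), NK cell markers (556 and 413 against 22.2 and 20.9) and plasma cell markers (382 and 461 against 106 in both) were higher in the first pair too. WT replicate 1 had the highest myeloid sum of all 12 libraries, 24566. Counts of called members in the knockout comparisons are therefore also given without one or the other pair. The pairs were drawn from the expression of these same libraries, and the labels do not name them. Calls and p-values of fits without a pair are thus descriptive throughout and not independent tests.

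All 3 genes of glutathione synthesis were called higher in Eμ-Myc than in WT cells. Gclc was 2.10-fold, Gclm 1.61-fold and Gss 1.33-fold higher, and the glutathione-cleaving enzyme Chac2 was 1.32-fold higher. The reductase Gsr, the peroxidases Gpx1 and Gpx4, Ggct and Chac1 did not pass the test. Thus 4 of the 9 tested members were called at an adjusted p under 0.05, all 4 higher, in a comparison in which 55.1% of 12723 genes were called, 30.4% as higher and 24.7% as lower. At an unadjusted p under 0.05 it was 4 members as well, against 60.7% of genes. Groups did not overlap for 3 members (Gclc, Gclm and Chac2), against 51.4% of all tested genes. The share of members called, 44.4%, was below that of all genes, and the median log2 change was 0.31 over the 9 members and -0.01 over all genes tested. The Gss and Chac2 calls depended on the processing, as given with each gene. Library quality weights called 6 of 9 members, adding Gsr as lower and Gpx1 as higher, beside 69.2% of all genes.

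Loss of PRPS2 on the Eμ-Myc background gave no called change in any of the 9 tested members. In limma's test over 12551 genes Prps2 itself was the only gene called, which is 0.00797% of genes, and 0 members had an unadjusted p under 0.05, against 0.964% of all genes (121 genes). Groups did not overlap for Gpx1 alone, against 1.53% of all genes. The median log2 change was -0.11 over members and -0.03 over all genes. Without knockout replicates 1 and 2, 3 of 8 tested members were called (Gss and Chac2 higher, Gsr lower), beside 28.5% of all genes. Without replicates 3 and 4, 1 of 9 was called (Chac2 lower), beside 10.5% of all genes. Library quality weights, which gave knockout replicate 1 a weight of 0.0817 and replicate 4 a weight of 7.76, called 7 of 9 members and 59.4% of all genes.

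Against WT, the knockout group had 1 called member, Gclc, which was 2.14-fold higher. Of the 12692 genes tested 29.3% were called, 19.7% as higher and 9.6% as lower. Gclm and Gss lay on the higher side at log2 changes of 0.66 and 0.53 but did not pass the test at adjusted p of 0.0604 and 0.0744. Groups did not overlap for Gclc alone, against 37.1% of all genes. The median log2 change was 0.07 over members and -0.01 over all genes. Without knockout replicates 1 and 2, 5 of 9 members were called (Gclc, Gclm, Gss and Chac2 higher, Gsr lower), beside 8612 of 12311 genes. Without replicates 3 and 4, Gclc was the 1 member called, beside 10.9% of all genes. The 3 comparisons share libraries pairwise, so their values are set side by side and not taken as support for each other.

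**Figure D1:**
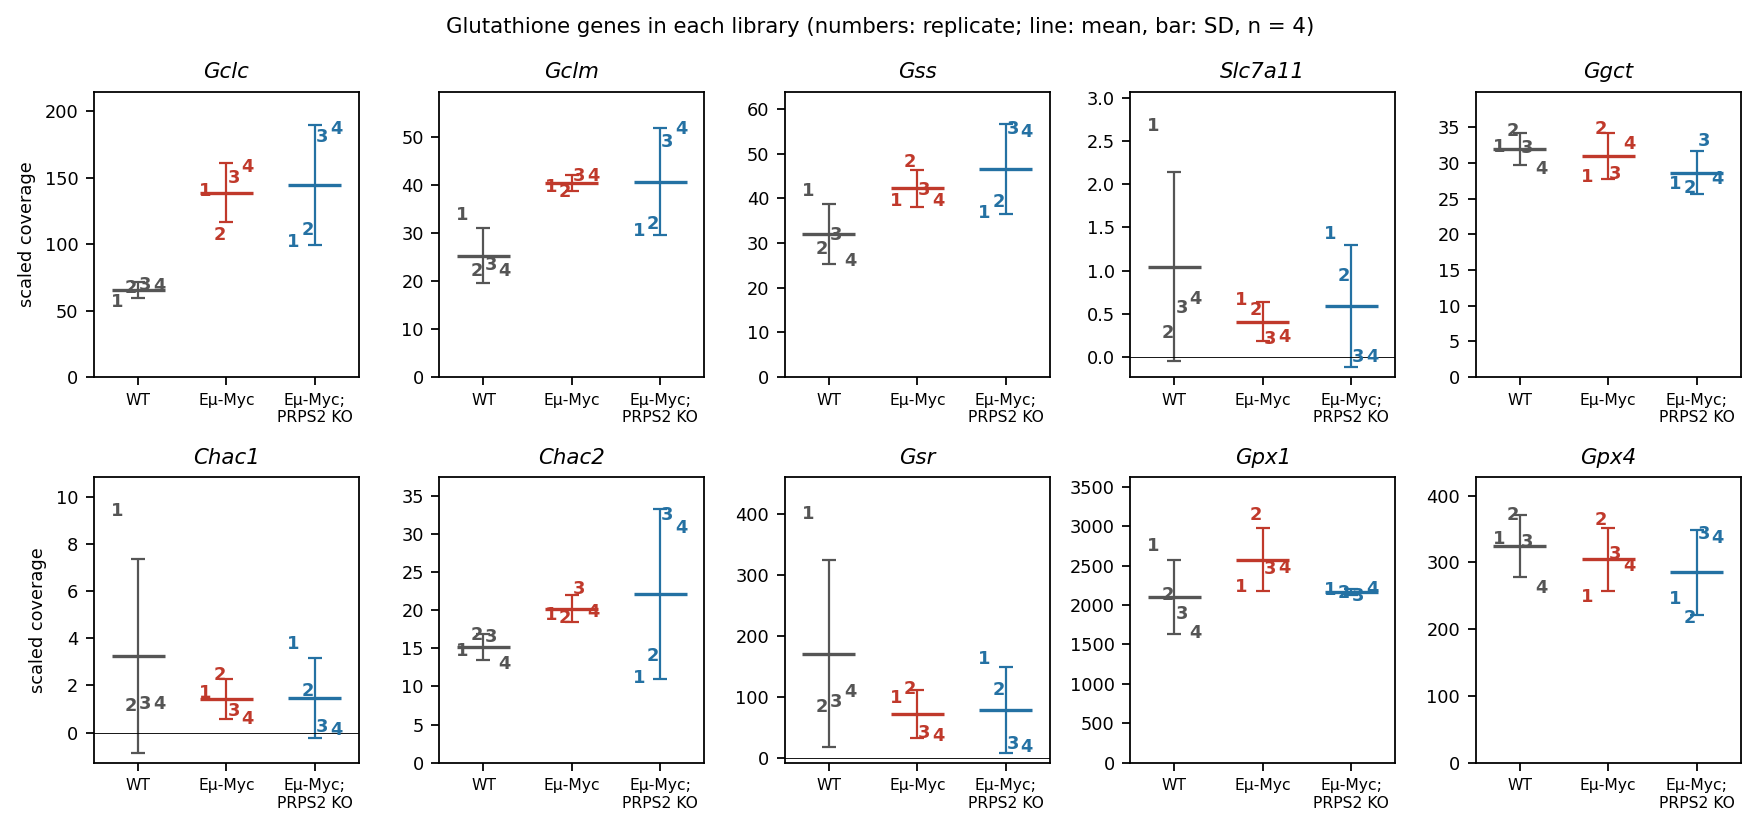
Scaled coverage (vertical axis, linear, no unit beyond coverage) of the 10 glutathione genes in each library, with a digit for each replicate, a line at the group mean and a bar of 1 SD (n = 4). All Eμ-Myc libraries lie above all WT libraries for Gclc, Gclm and Chac2, and knockout replicates 3 and 4 lie on 1 side of 1 and 2 for all genes but Gpx1, by a small margin for Ggct.

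**Figure D2:**
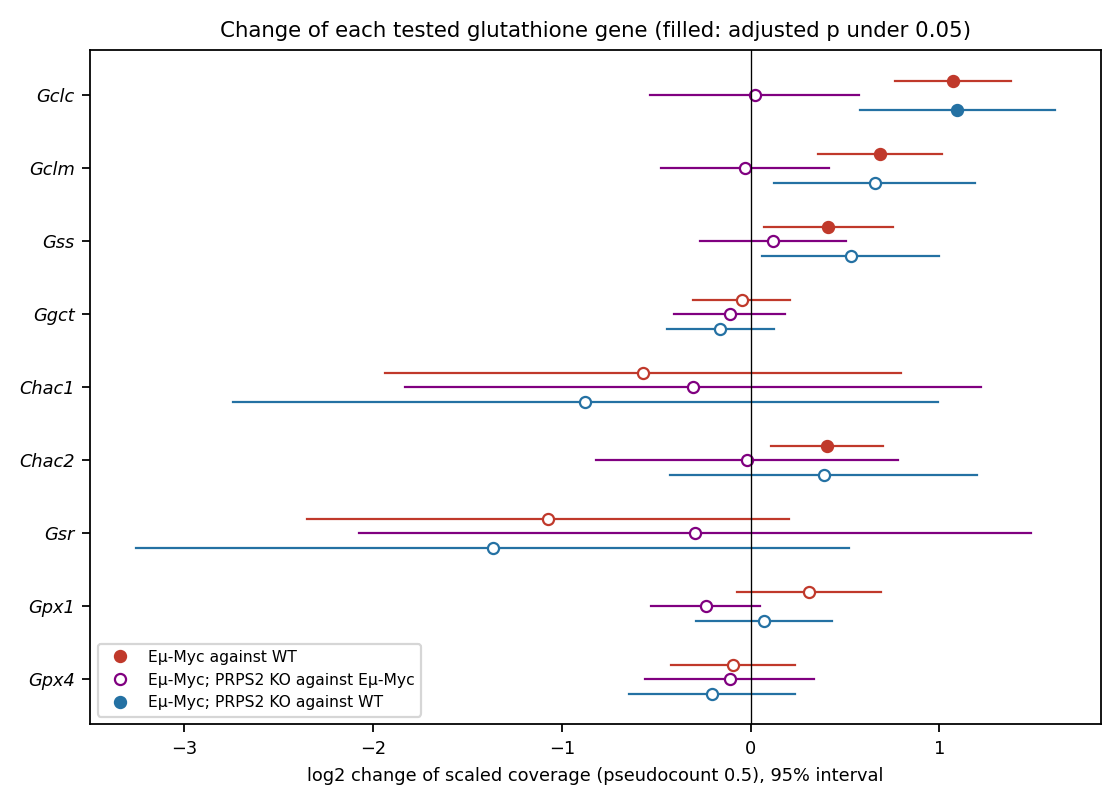
Log2 change of scaled coverage (horizontal axis, pseudocount 0.5) for the 9 tested glutathione genes in the 3 comparisons, with 95% intervals from limma and filled points where the adjusted p is under 0.05. Filled points are Gclc, Gclm, Gss and Chac2 in Eμ-Myc against WT and Gclc in the knockout against WT, and none in the knockout against Eμ-Myc.

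Cystine import was represented by Slc7a11 (chr3:49892526-50443614 on GRCm38, minus strand), which was near the lower limit of the data. Its scaled coverage was 2.67, 0.281, 0.565 and 0.671 in WT replicates 1 to 4. Eμ-Myc replicates had 0.662, 0.546, 0.205 and 0.225. Knockout replicates 1 and 2 had 1.42 and 0.933, and replicates 3 and 4 were listed at 0. Only WT replicate 1 and knockout replicate 1 reached a scaled coverage of 1, and the groups overlapped, so no fold change or test is given. The promoter with a pair of TGATGCAA matches shown above is that of a gene with little coverage in these cells. Slc3a2, the heavy chain that carries Slc7a11 and other amino acid transporters to the membrane, was abundant by comparison, at 146 ± 10.5 (SD, n = 4) in the WT group and 194 ± 19.0 with Eμ-Myc, a log2 change of 0.41 (adjusted p = 0.00815).

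Gclc (chr9:77754535-77794485, plus strand), the catalytic subunit of glutamate cysteine ligase, showed the clearest difference of the 10 genes from WT. In WT replicates 1 to 4 its scaled coverage was 56.1, 67.2, 68.9 and 68.3. Eμ-Myc replicates had 139.9, 107, 150.0 and 158. Every Eμ-Myc library was above every WT library, and the group means were 65.1 ± 6.06 and 139 ± 22.3 (SD, n = 4). The log2 change was 1.07 (SE 0.137, adjusted p = 0.000171, limma), and the call held in every alternative tried, with log2 changes from 0.89 to 1.19. Knockout replicates had 101, 110.2, 181 and 186, so that replicates 1 and 2 were within or below the Eμ-Myc range and replicates 3 and 4 above it. Knockout and Eμ-Myc differed by a log2 change of 0.02, with a 95% interval from -0.53 to 0.58. That difference was 0.42 without knockout replicates 1 and 2 (adjusted p = 0.0864) and -0.44 without replicates 3 and 4 (adjusted p = 0.124). Library quality weights called it higher (0.30, adjusted p = 0.0147). Against WT the knockout was higher by a log2 change of 1.10 (SE 0.225, adjusted p = 0.0182). This call was lost, at adjusted p of 0.0546 to 0.0741, when WT replicate 1, 2 or 3 or knockout replicate 3 or 4 was left out, with log2 changes of 0.92 to 1.12. Those fits called 3% to 7.06% of all genes, against 29.3% in the reported fit. The summed proliferation markers were also lowest in the 4 WT libraries (428 to 521) and highest in knockout replicates 3 and 4, and their part in the Gclc difference was not tested. Gclm, Gss and Chac2 were highest in knockout replicates 3 and 4 as well, and the part of proliferation in their values was not tested either.

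Gclm (chr3:122245557-122270732, plus strand), the modifier subunit that raises the activity of the ligase, was higher in Eμ-Myc than in WT. Its scaled coverage was 33.7, 22.1, 23.3 and 22.0 in WT replicates 1 to 4. The Eμ-Myc values were 39.4, 38.4, 41.7 and 41.8. All Eμ-Myc libraries exceeded all WT libraries, with WT replicate 1 nearest to them. The log2 change was 0.69 (SE 0.147, adjusted p = 0.00339), and it kept its call in every alternative, between 0.51 and 0.83. In the knockout the values were 30.4, 31.7, 49.0 and 51.6, the first 2 below and the last 2 above all Eμ-Myc libraries. The log2 change between knockout and Eμ-Myc was -0.03, with a 95% interval from -0.47 to 0.42. It was 0.31 without knockout replicates 1 and 2 (adjusted p = 0.0553) and -0.44 without replicates 3 and 4 (adjusted p = 0.0600). Library quality weights called it higher (0.28, adjusted p = 0.00851). The annotation places 296 of the 6291 exon bases of Gclm opposite the transcript Gm17494 and 244 within the pseudogene Gm6061 on the same strand. The library kit was directional, but whether counting used the strand is not given in the sources used here, so reads in these bases cannot be assigned with certainty.

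Gss (chr2:155563181-155592810, minus strand), the second enzyme of synthesis, differed less. WT replicates 1 to 4 had a scaled coverage of 41.6, 28.6, 31.8 and 26.1. Eμ-Myc replicates had 39.4, 48.1, 41.9 and 39.4. WT replicate 1 lay within the Eμ-Myc range, so the groups overlapped. The log2 change was 0.41 (SE 0.152, adjusted p = 0.0439), and the call was lost in 7 of the 8 fits that left out 1 library (adjusted p 0.0602 to 0.116), the exception being the fit without WT replicate 1 (0.00642). It was also lost with the replicate block (0.0600), with median-of-ratios scaling (0.0767), with total coverage scaling (0.203), with no filter (0.0592), with a constant prior (0.0528) and with all 12 libraries in one fit (0.0803). Knockout values were 36.8, 39.1, 55.5 and 54.8, again low in replicates 1 and 2. The knockout differed from Eμ-Myc by 0.12 on the log2 scale (95% interval -0.27 to 0.51), by 0.39 without replicates 1 and 2 (adjusted p = 0.0475) and by -0.21 without replicates 3 and 4 (adjusted p = 0.294). Library quality weights called Gss higher in the knockout than in Eμ-Myc (0.40, adjusted p = 0.00181). Of the 5915 exon bases of Gss, 395 are shared with Acss2 on the opposite strand, and the antisense transcripts Gssos1 and Gssos2 cover 322 and 385.

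Within a library, the ratio of Gclm to Gclc compares the modifier with the catalytic subunit. Computed from scaled coverage with 0.5 added to each value, it was 0.604, 0.334, 0.342 and 0.327 in WT. In Eμ-Myc it was 0.285, 0.362, 0.280 and 0.268, and in the knockout 0.303, 0.291, 0.273 and 0.279. All 4 knockout libraries were below all 4 WT libraries, by 0.44 on the log2 scale, which gave p = 0.0286 in an exact two-sided permutation test, the smallest p that 70 arrangements allow. Adjusted over the 9 ratio tests it was 0.257, which does not pass. Eμ-Myc against WT gave -0.39 (exact permutation p = 0.114) and knockout against Eμ-Myc -0.05 (exact permutation p = 0.800). WT replicate 1 had by far the highest ratio, and without it the difference from WT was -0.22 for the knockout and -0.17 for Eμ-Myc. The 4 knockout libraries, which differed in Gclc and Gclm themselves, had ratios close together.

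Chac2 (chr11:30976707-30986350, minus strand), which cleaves glutathione slowly and constitutively, rose in Eμ-Myc cells. WT replicates 1 to 4 had a scaled coverage of 14.6, 16.7, 16.5 and 13.0. Eμ-Myc replicates had 19.3, 19.0, 22.8 and 19.7, all above WT. The log2 change was 0.40 (SE 0.131, adjusted p = 0.0257). The call was lost without WT replicate 1 (adjusted p = 0.0504), WT replicate 4 (0.0567), Eμ-Myc replicate 3 (0.101) or Eμ-Myc replicate 4 (0.0709), and also with total coverage scaling (0.218) or all 12 libraries in one fit (0.283). Knockout values spread most, at 11.1, 14.0, 32.5 and 30.7. Replicates 1 and 2 were below and replicates 3 and 4 above every Eμ-Myc library. The difference between knockout and Eμ-Myc was -0.02 on the log2 scale (95% interval -0.82 to 0.78). It was 0.64 without replicates 1 and 2 (adjusted p = 0.0134) and -0.74 without replicates 3 and 4 (adjusted p = 0.0423), so its direction was set by which pair was kept. As the pairs were drawn from these libraries' own expression, both adjusted p values are descriptive. Library quality weights called it higher (0.52, adjusted p = 0.00551). Chac2 lies within the span of Asb3 on the opposite strand, with 0 exon bases shared.

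Chac1 (chr2:119351229-119354381, plus strand), the stress-induced relative of Chac2, was low. Its scaled coverage was 9.42, 1.13, 1.22 and 1.23 in WT. Values of 1.70, 2.46, 0.924 and 0.563 were found in Eμ-Myc and 3.76, 1.76, 0.222 and 0.111 in the knockout. WT replicate 1 stood far above the other libraries, and knockout replicates 3 and 4 were the lowest. None of the comparisons passed: Eμ-Myc cells differed from WT cells by a log2 change of -0.57 (SE 0.605, adjusted p = 0.443) and -0.30 separated the knockout from Eμ-Myc (95% interval -1.83 to 1.22). Library quality weights called Chac1 lower in the knockout, by -1.12 against Eμ-Myc (adjusted p = 0.00666) and -1.63 against WT (adjusted p = 0.00294). In Eμ-Myc against WT it was 0.07 without WT replicate 1. The ratio of Chac2 to Chac1 ran from 1.52 to 10.6 in WT, 6.60 to 19.0 in Eμ-Myc and 2.72 to 51.1 in the knockout, with 0.5 added to each value. Without WT replicate 1 the log2 difference in this ratio fell from 0.98 to 0.32 in Eμ-Myc against WT, and from 1.26 to 0.61 in the knockout against WT. Groups overlapped in all 3 comparisons of this ratio (exact two-sided permutation p of 0.257, 0.886 and 0.314).

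Ggct (chr6:54982580-54992950, minus strand), which acts on gamma-glutamyl amino acids after glutathione is broken down outside the cell, deviated least over the 12 libraries of the 8 members compared in this way, with a mean absolute deviation of 0.13 in log2 values. WT libraries had a scaled coverage of 32.2, 34.5, 32.1 and 29.1. Eμ-Myc libraries had 28.0, 34.8, 28.5 and 32.7. In the knockout it was 27.1, 26.5, 33.1 and 27.7. All 3 groups overlapped. No comparison passed the test: the log2 change was -0.05 in Eμ-Myc against WT (95% interval -0.30 to 0.21), -0.11 in the knockout against Eμ-Myc (-0.41 to 0.18) and -0.16 in the knockout against WT (-0.44 to 0.12). The difference between knockout and Eμ-Myc was -0.025 without knockout replicates 1 and 2 and -0.26 without replicates 3 and 4, neither of them called.

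Gsr (chr8:33652523-33698163, plus strand), the glutathione reductase, varied more between libraries than between genotypes. Scaled coverage in WT was 400.4, 82.6, 92.3 and 108. Eμ-Myc libraries had 98.0, 114, 40.9 and 36.4, and knockout libraries 163, 111, 22.3 and 17.9. WT replicate 1 was far above the other libraries, knockout replicates 3 and 4 were lowest of all, and all 3 groups overlapped. Eμ-Myc differed from WT by a log2 change of -1.07 (SE 0.562, adjusted p = 0.134), and the knockout from Eμ-Myc by -0.29 (SE 0.775, adjusted p = 1.00). The knockout differed from WT by -1.37 (SE 0.821, adjusted p = 0.199), so that no comparison passed. Without WT replicate 1 the Eμ-Myc difference was -0.55 (adjusted p = 0.271) and the knockout difference from WT -0.84 (adjusted p = 0.422), while library quality weights called Gsr lower in Eμ-Myc (-1.20, adjusted p = 0.0234). Without knockout replicates 1 and 2 the knockout was lower than Eμ-Myc by a log2 change of -1.65 (adjusted p = 0.0365) and lower than WT by -2.73 (adjusted p = 0.00734). Leaving out replicates 3 and 4 turned the first of these to 1.00 (adjusted p = 0.180) and left the second at -0.082 (adjusted p = 0.955). With quality weights they were -1.20 (adjusted p = 0.0111) and -2.40 (adjusted p = 0.0003).

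The summed myeloid markers, like Gsr, Chac1 and Slc7a11, were highest in WT replicate 1 and lowest in knockout replicates 3 and 4. The summed plasma cell markers were so too, at 653 in WT replicate 1 and 106 in both knockout replicates 3 and 4. T cell and NK cell sums were also lowest in these knockout replicates, but highest in WT replicate 4 (2475 and 1347). All 8 of 8 myeloid markers were above 0 in every library. Their sum was 24566, 8182, 8152 and 14450 in WT. It was 10031, 16761, 6748 and 5720 in Eμ-Myc and 15378, 11469, 3017 and 1315 in the knockout. Itgam, the integrin chain of neutrophils and macrophages, was 511 in WT replicate 1 and 25.8 and 18.9 in knockout replicates 3 and 4. The part of myeloid, plasma or other cells in the Gsr, Chac1 and Slc7a11 values was not tested. In these bulk samples fewer cells of a type and less RNA per cell cannot be told apart.

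**Figure D3:**
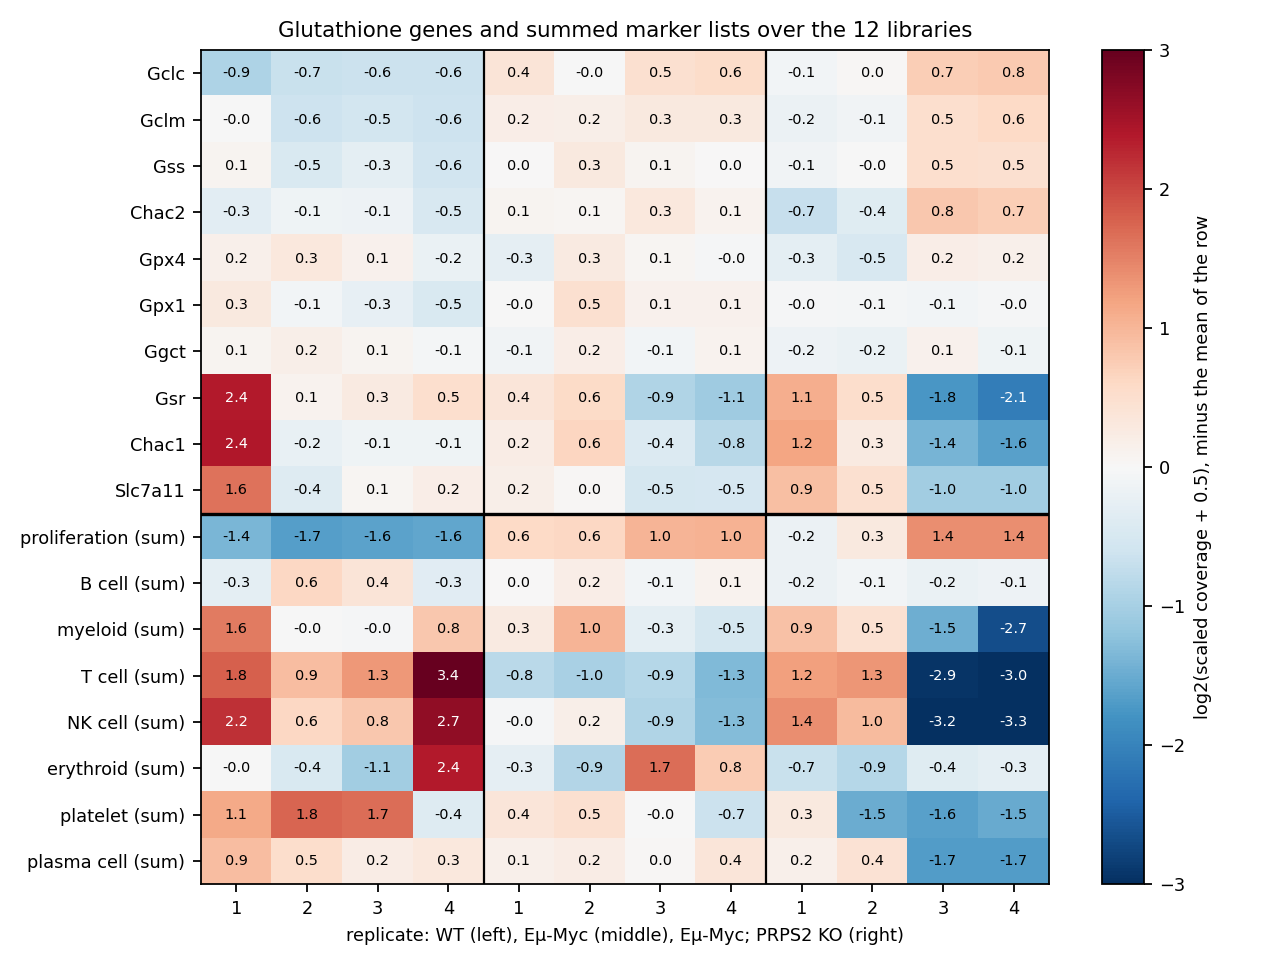
Log2(scaled coverage + 0.5) of the 10 glutathione genes (upper rows) and of 8 summed marker lists (lower rows) in each of the 12 libraries, minus the mean of the row, with colour and printed value giving the deviation. Gsr, Chac1, Slc7a11 and the myeloid and plasma cell sums are highest in WT replicate 1 and lowest in knockout replicates 3 and 4, while Gclc and the proliferation sum are low in WT and highest in knockout replicates 3 and 4.

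Gpx1 (chr9:108338903-108340343, plus strand), the abundant cytosolic peroxidase, had the highest coverage of the members. WT libraries had a scaled coverage of 2745, 2123, 1892 and 1643, and Eμ-Myc libraries 2227, 3148, 2456 and 2470.1. The knockout libraries were close together, at 2196, 2159, 2115 and 2201, with a coefficient of variation of 1.84%. They did not overlap with Eμ-Myc, the only member of which this was true. The difference was nonetheless not called, with a log2 change of -0.24 (SE 0.126, 95% interval -0.52 to 0.05, adjusted p = 1.00, unadjusted p = 0.0954). It was -0.24 without knockout replicates 1 and 2 (adjusted p = 0.238) and -0.29 without replicates 3 and 4 (adjusted p = 0.218). Library quality weights called it lower (-0.17, adjusted p = 0.0286). Eμ-Myc against WT gave 0.31 (SE 0.169, adjusted p = 0.148), which passed without WT replicate 1 (log2 change 0.44, adjusted p = 0.0321) and with library quality weights (0.29, adjusted p = 0.0304). It was 0.20 without WT replicate 4 or without Eμ-Myc replicate 2. Knockout against WT gave 0.07 (SE 0.158, adjusted p = 0.720).

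Gpx4 (chr10:80047166-80056439, plus strand), which reduces lipid hydroperoxides in membranes and guards against ferroptosis, did not differ beyond its spread in any comparison. In WT its scaled coverage was 335, 372, 330 and 261, in Eμ-Myc 249, 363, 312 and 294, and in the knockout 245, 217, 343 and 337. All 3 groups overlapped, with knockout replicates 1 and 2 the lowest libraries. The log2 change was -0.09 in Eμ-Myc against WT (95% interval -0.42 to 0.23), -0.11 in the knockout against Eμ-Myc (-0.56 to 0.34) and -0.20 in the knockout against WT (-0.64 to 0.24). The ratio of Gpx1 to Gpx4 within a library, again with 0.5 added to each value, was 5.70 to 8.17 in WT, 7.85 to 8.94 in Eμ-Myc and 6.17 to 9.94 in the knockout. Eμ-Myc against WT differed by 0.40 on the log2 scale in this ratio (exact two-sided permutation p = 0.0571, adjusted 0.257). The annotation lists a processed pseudogene of Gpx4, Gpx4-ps2, with which reads could be shared.

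By the arithmetic group mean of scaled coverage, the order of the groups was WT, Eμ-Myc and knockout from low to high for Gclc, Gclm, Gss and Chac2. Neighbours in that order, Eμ-Myc and the knockout, did not differ beyond their spread for any of the 4. For Ggct and Gpx4 the order ran the other way, for Gsr, Chac1 and Slc7a11 it was Eμ-Myc, knockout and WT, and for Gpx1 it was WT, knockout and Eμ-Myc. On the log2 scale of the test the knockout lay below Eμ-Myc for Gclm, Chac2, Gsr and Chac1, so that their order of these groups is the reverse there. The place of WT rested on WT replicate 1 for Chac1 and Slc7a11, whose WT means were 1.19 and 0.506 without it, below the knockout means of 1.46 and 0.589 and, for Chac1, below the Eμ-Myc mean of 1.41. No neighbouring groups of these 6 genes differed beyond their spread by the test, Slc7a11 being untested. Within the knockout, the log2 difference of replicates 3 and 4 from replicates 1 and 2 was 1.31 for Chac2, 0.79 for Gclc, 0.69 for Gclm, 0.56 for Gpx4, 0.53 for Gss, 0.17 for Ggct, -0.01 for Gpx1, -2.22 for Chac1 and -2.72 for Gsr. Slc7a11, listed at 0 in replicates 3 and 4, is left out of this comparison. Myc itself differed by 1.20 in the same direction as Chac2 and the synthesis genes. These are 4 libraries of a single genotype in the labels, and their differences are a description with no test.

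Other genes of glutathione metabolism gave a wider view of the Eμ-Myc difference. Of 30 listed genes 23 were tested, and 16 were called in Eμ-Myc against WT (11 higher, 5 lower). Cth and Cbs were below a scaled coverage of 1 in every WT library and entered the test only through Eμ-Myc. Without them 14 of 21 genes were called (9 higher, 5 lower), or 66.7% beside the 55.1% of all genes given above, with a median log2 change of 0.25. The gap to all genes depended on single libraries: without Eμ-Myc replicate 4, 10 of 21 genes were called (47.6% beside 46.5%), and without WT replicate 1, 12 of 23 with Cth and Cbs included (52.2% beside 51.6%). Ggt6, Dpep1, Gpx2, Gpx5 and Gpx6 were listed at 0 in all 12 libraries. Of the 4 genes of cysteine supply other than Cth and Cbs, 3 were called higher and none lower, beside 30.4% and 24.7% of all genes. Ahcy, which makes homocysteine, went from 22.6 ± 1.72 (SD, n = 4) to 101 ± 14.6, a log2 change of 2.13. Cth, which makes cysteine from cystathionine, averaged 0.244 ± 0.113 (SD, n = 4) in the WT group and 8.30 ± 1.31 with Eμ-Myc. The limma fit that used no filter gave Cth a log2 change of 3.57 (adjusted p = 3.61e-06), and Cbs, the enzyme before it, one of 2.05 from a WT mean of 0.221 (adjusted p = 0.000107). At these WT levels the fold changes depend on the pseudocount and ran from 2.19 to 4.67 for Cth and from 1.01 to 3.12 for Cbs on the log2 scale over the alternatives.

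Among the other genes of the gamma-glutamyl cycle, which act outside and inside the cell, 4 of 7 tested genes were called lower in Eμ-Myc and 1 higher, beside 24.7% and 30.4% of all genes. The gamma-glutamyl transferase Ggt1 was 18.2, 3.66, 5.65 and 27.0 in WT and 1.23, 1.18, 1.03 and 0.676 in Eμ-Myc, a log2 change of -2.82 (adjusted p = 0.00238). Ggt5, Oplah and the aminopeptidase Anpep had log2 changes of -1.57, -0.85 and -0.68 (adjusted p = 0.0294, 0.0466 and 0.0375). Of all 16 called genes of the list, 12 kept their call with all 12 libraries in one fit, beside 42.4% of all genes called. Without WT replicate 1 it was 12 too, beside 51.6%. The Oplah call was lost with library quality weights (-0.77, adjusted p = 0.0719). The summed T cell and NK cell markers were also lower in all Eμ-Myc libraries than in all WT libraries (94.7 to 136 against 450.1 to 2475, and 86.4 to 239 against 326 to 1347), and their part in these values was not tested. Ggt5 and Anpep, like the myeloid and plasma cell sums, were highest in WT replicate 1 (46.9 and 24.6) and lowest in knockout replicates 3 and 4. None of the 8 myeloid markers was called in Eμ-Myc against WT, and the part of myeloid or plasma cells was not tested either. Lap3, a cytosolic aminopeptidase that can split cysteinylglycine, was the gene called higher, from 37.1 ± 4.87 to 96.3 ± 11.3 (SD, n = 4), a log2 change of 1.37 (adjusted p = 2.94e-05).

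Slc25a39, which brings glutathione into mitochondria, rose by a log2 change of 1.04 (adjusted p = 8.42e-05), and its relative Slc25a40 had -0.30 and did not pass (adjusted p = 0.249). The exporter Abcc1 was called lower at -0.53. Of 4 genes of glutathione-dependent detoxification 3 were called higher, beside 30.4% of all genes. Adh5, the S-nitrosoglutathione reductase, had 1.05 (adjusted p = 8.88e-05). Glo1 had a log2 change of 0.57 and Esd one of 0.49. Of the peroxidases, Gpx7 was called higher at 1.27 from a WT mean of 1.67, and Gpx3 did not pass. Ahcy, Cth, Lap3, Slc25a39 and Adh5, like the proliferation sum, were lowest in the 4 WT libraries and highest in knockout replicates 3 and 4. The part of proliferation in their values was not tested.

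In the knockout against Eμ-Myc, 0 of 22 tested genes of this list were called by limma, and 0 had an unadjusted p under 0.05. The smallest p values among these genes and the regulators were 0.105 for Mafg (log2 change 0.22), a partner of NRF2, and 0.170 for Ggt1 (0.99), neither of which passed. Mafg was called higher with library quality weights (0.24, adjusted p = 0.0110), and Ggt1 without knockout replicates 3 and 4 (2.18, adjusted p = 0.00928). Ggt1 was 8.53 and 5.08 in knockout replicates 1 and 2 and 0.888 and 0.666 in replicates 3 and 4. Without knockout replicates 1 and 2, 9 of 20 tested genes of the list were called, beside 28.5% of all genes, and without replicates 3 and 4, 4 of 22, beside 10.5%. Ahcy, Adh5 and Cth were called in both fits with opposite signs. They had 0.75, 0.48 and 0.89 without replicates 1 and 2, and -0.87, -0.70 and -0.97 without replicates 3 and 4. Against WT, 8 of 23 tested genes were called in the knockout, all higher. Without knockout replicates 1 and 2, 16 of 20 were called, beside 70% of all genes. In that fit Ggt1, Ggt5, Oplah, Anpep, Dpep2 and Abcc1 were called lower, as they were with library quality weights. In the reported fit Cth (3.56) and Cbs (2.47) again entered only through the knockout libraries. The Cbs call was lost without WT replicate 1, 2 or 3 (adjusted p = 0.0543, 0.0522 and 0.0602), and its log2 change ran from 1.35 to 3.56 over the alternatives. Without Cth and Cbs, 6 of 21 were called, or 28.6% beside 29.3% of all genes. These 6 were Ahcy (2.10), Lap3 (1.38), Slc25a39 (1.04), Adh5 (0.97), Gpx7 (0.93) and Mat2a (0.71), as log2 changes. Without WT replicate 1, 2, 3 or 4, the 6 genes kept 2, 1, 1 or 3 of their calls, beside 7.06%, 4.85%, 4.78% or 10% of all genes called. The 6 genes were all called without knockout replicate 1 or 2, beside 53.1% or 33% of all genes. Without knockout replicate 3 or 4, 0 of the 6 were called, beside 4.01% or 3% of all genes. Mat2a lost its call in 6 of 8 such fits and Slc25a39 in 5, with adjusted p of up to 0.135 and 0.0751.

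**Figure D4:**
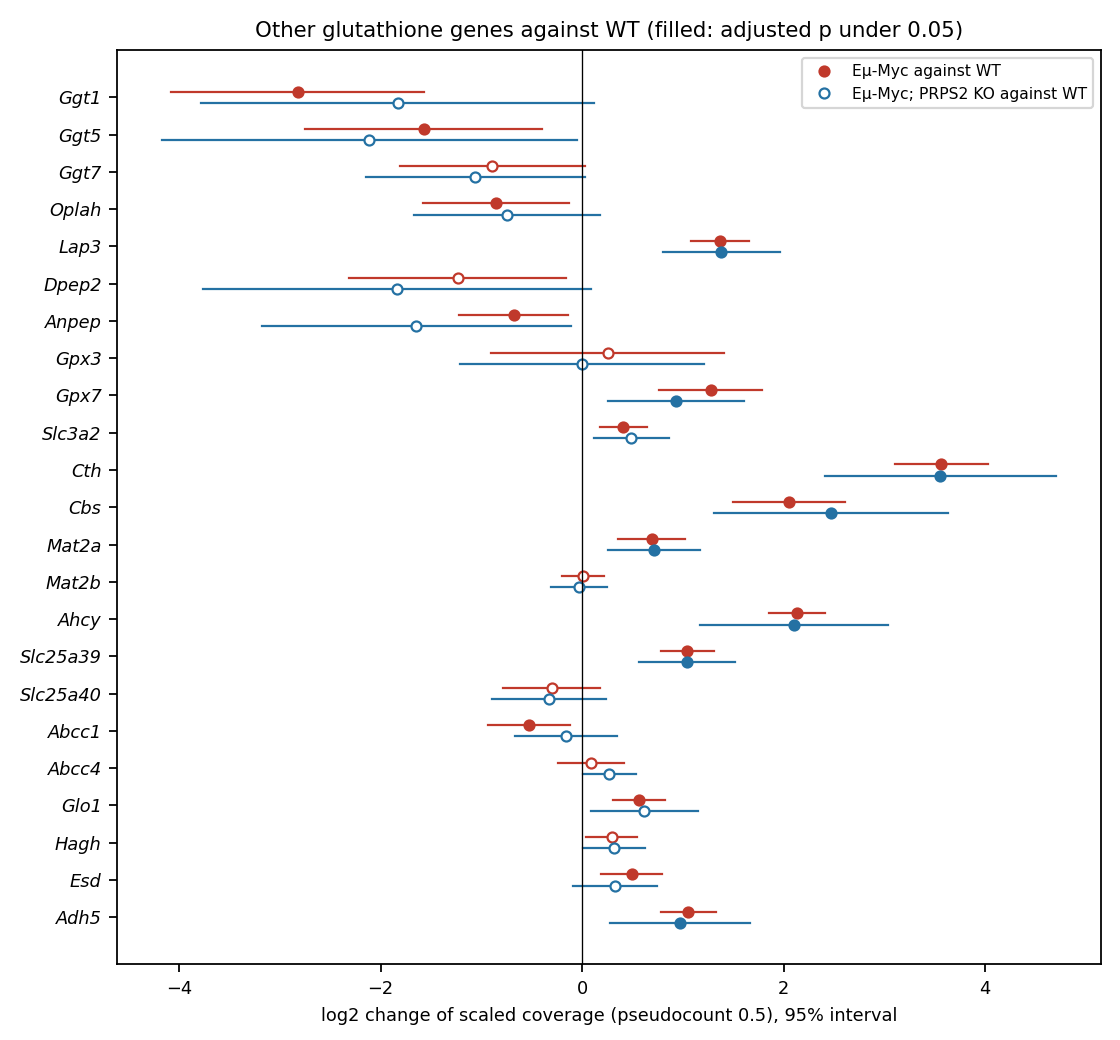
Log2 change against WT (horizontal axis, pseudocount 0.5, 95% intervals from limma) of the 23 tested other genes of glutathione metabolism, in Eμ-Myc and in the knockout, filled where the adjusted p is under 0.05. Cth, Ahcy and Cbs lie farthest to the right in both groups, and Ggt1 and Ggt5 farthest to the left in Eμ-Myc.

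Of 7 listed regulators of these genes (Nfe2l2, Keap1, Mafg, Mafk, Bach1, Atf4 and Ddit3) 2 were called in Eμ-Myc against WT, both lower, beside the 55.1% of all genes given above. Bach1, a repressor at antioxidant response elements, had a log2 change of -1.03 (SE 0.250, adjusted p = 0.00678), from 27.6 ± 10.4 to 12.9 ± 3.19 (SD, n = 4). Its scaled coverage was highest in WT replicate 1 (42.8), and in the knockout 22.5 and 21.6 in replicates 1 and 2 and 7.66 and 7.10 in replicates 3 and 4. All 8 tested T cell markers and all 6 NK cell markers were called lower in the same comparison, and myeloid markers were highest in WT replicate 1. The part of such cells in the Bach1 value was not tested. Ddit3, which encodes CHOP, had -0.81 (SE 0.182, adjusted p = 0.00434), and in the knockout against WT -1.17 (SE 0.338, adjusted p = 0.0385). The latter was -1.81 without knockout replicates 1 and 2 (adjusted p = 6.12e-05) and -0.61, no longer called, without replicates 3 and 4 (adjusted p = 0.0528). Its scaled coverage was also highest in WT replicate 1 (122), and in the knockout 72.6 and 67.2 in replicates 1 and 2 and 29.3 and 28.2 in replicates 3 and 4, and the part of other cells in it was not tested. Nfe2l2, which encodes NRF2, had -0.31 (adjusted p = 0.185), and Atf4 0.22 (adjusted p = 0.270), neither of which passed. None of the 7 was called in the knockout against Eμ-Myc, and none had an unadjusted p under 0.05. Library quality weights called Ddit3 (-0.87), Bach1 (-0.68) and Mafk (-0.20) lower there, and Mafg (0.24) and Keap1 (0.21) higher, beside 59.4% of all genes. Without knockout replicates 1 and 2, Ddit3 (-0.99, adjusted p = 0.0166) and Bach1 (-0.75, adjusted p = 0.0405) were called lower there, and without replicates 3 and 4 they had 0.21 and 0.71 and were not called.

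Profiles over the 12 libraries were compared by the mean absolute difference of centred log2 values, a description over libraries that share genotype and scaling. Among 10565 genes, those most like Gclc were Dgcr8 (0.051), Myef2 (0.062) and Suclg2 (0.067), where the mean absolute deviation of Gclc itself was 0.50. Among the nearest to Gclm were Ssr1 (0.063) and P4hb (0.082), and nearest to Gss were St6galnac6 (0.074), Fbxo31 (0.086) and Akt1 (0.090). Katnbl1 (0.095), Mtrf1 (0.11) and Txnrd3 (0.13) were nearest to Chac2. For Gsr, which deviated by 0.96, they were Pik3r6 (0.14), Grina (0.15) and Pygl (0.16). For Gpx1 they were Plac8, Manbal and Mir6418 (0.074 to 0.080), for Gpx4 Bbip1, Otulin and Tpgs1 (0.075 to 0.096), and for Ggct Borcs7, Smim7 and Narfl (0.061 to 0.064). Chac1 and Slc7a11 were below a scaled coverage of 1 in some libraries and were not compared. Among the members themselves, Gclm and Gss were the most alike (0.14) and Gclc and Gsr the least (1.40).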

How the data were processed

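RNA-seq of 12 libraries was analysed. Per the labels, RNA was polyA-selected and libraries were made with a directional kit. The authors deposited 1 file per library with a coverage signal per gene symbol, with 1 decimal. The submitters' processing notes name mm10, R 4.3.3 and DESeq without a role. The aligner, the counting step, its use of strand and the annotation are not given in the sources used here. The read depth behind a value is therefore unknown, and no counting interval is given. The sum of deposited coverage per library ran from 1277305.5 to 1885768.9.

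Values were scaled by unweighted trimmed means of log ratios (30% of ratios and 5% of means trimmed at each end). A comparison used its 8 libraries and the genes that reached a scaled coverage of 1 in 4 or more of them. The test was run on log2(scaled coverage + 0.5) with limma 3.58.1 in R 4.3.3 (trended prior, robust, two-sided). A call needed an adjusted p (Benjamini-Hochberg, across every gene tested) under 0.05. Fold changes are on the pseudocount scale and understate low genes. The labels call the libraries biological replicates and do not say how many animals each came from, so p-values measure the spread between these libraries. Ratios of members were compared by exact permutation tests in Python 3.11.15 with scipy 1.17.1. The test was run on simulated data first. Gene positions are from GENCODE M21 and promoters from RefSeq, both on GRCm38, the assembly of mm10.

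All 10 members were named. Of the other genes and regulators, the 6 with the smallest adjusted p among the called were named in each comparison, or the 2 with the smallest p where none passed. Further genes, such as those called lower, were named after their values were seen. Members and lists were chosen with earlier results of these data known. Marker lists were B cell, T cell, NK cell, myeloid, erythroid, plasma cell, platelet and proliferation. In the T cell list 8 of 9 symbols were found.

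Same-numbered libraries of the knockout and Eμ-Myc deviated together across genes (r of 0.692, 0.165, 0.25 and 0.651), so the numbers were treated as pairs there in a replicate block. Some differently numbered libraries correlated as strongly or more so (knockout 2 with Eμ-Myc 1 at 0.671, knockout 3 with Eμ-Myc 4 at 0.645). The labels do not say what a number shares. Alternatives were other scalings, filters, pseudocounts, priors and weights, 1 fit of all 12 libraries, the replicate block, removal of haemoglobin genes, and leaving out libraries. Leaving out knockout replicates 3 and 4 together was added after seeing the data.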

Additional observations from a re-analysis of the deposited data

Results flagged for a closer look

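WT replicate 1 stood apart from the other WT libraries in 5 of the 10 genes, by the gap to its nearest neighbour relative to the range of the group. It was lowest in Gclc, at a scaled coverage of 56.1 with the next library at 67.2. It was highest in Gclm (33.7, next 23.3), Gsr (400.4, next 108), Slc7a11 (2.67, next 0.671) and Chac1 (9.42, next 1.23). In all, 30 groups of 4 libraries were examined and these 5 were the only ones singled out, where chance would give about 5% of groups. The 5 genes share a library and are not independent. The same library had the highest summed myeloid and plasma cell markers of the 12, at 24566 and 653, and the part of such cells was not tested. Without it, Gclc and Gclm kept their calls in Eμ-Myc against WT.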

How the results depend on the processing

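Gclc and Gclm kept direction and call in Eμ-Myc against WT under every alternative tried. All genes called in that comparison (7016) ran from 4835 with the filter of 10 to 8808 with library quality weights. The share of all genes called was 59.3% with the filter of 10, which tested 8158 genes, and 40% with no filter, against 55.1% as reported. It was 69.2% with quality weights, 57.4% with total coverage scaling and 42.4% with all 12 libraries in one fit. With 1 library left out it ran from 46.4% to 54.7%. Members called there (4) became 6 with library quality weights (Gsr lower and Gpx1 higher were added), 2 with total coverage scaling or all 12 libraries in one fit, and 2 to 4 when 1 library was left out (2 without WT replicate 4, Eμ-Myc replicate 3 or Eμ-Myc replicate 4); other glutathione genes (16) became 8 with a filter of 10 in every library, where fewer genes could be tested, and 10 to 16 with 1 library left out (10 without Eμ-Myc replicate 4). In the knockout against Eμ-Myc, members called (0) became 7 with quality weights, 3 without knockout replicates 1 and 2 and 1 without replicates 3 and 4, and other genes (0) became 12, 9 and 4; all genes called (1) became 7459, 3489 and 1303. With the replicate block that comparison had 0 members and 0 other genes called. In the knockout against WT, members called (1) became 2 with the filter of 10, 3 with all 12 libraries, 6 with quality weights, 5 without knockout replicates 1 and 2, and 0 to 3 with 1 library left out (0 without WT replicate 1, 2 or 3 or knockout replicate 3 or 4, 3 without knockout replicate 1). The share of all genes called moved too, from 29.3% to 38.9% with the filter of 10, 46.8% with all 12 libraries and 82.8% with quality weights. It was 70% without knockout replicates 1 and 2, 10.9% without replicates 3 and 4 and 14.7% with the replicate block. The fits with 0 members called had 3% to 7.06% of all genes called, and the fit without knockout replicate 1 had 53.1%. Other genes (8) became 13 with all 12 libraries, 5 with the replicate block, 21 with quality weights, 16 without knockout replicates 1 and 2, and 3 without replicates 3 and 4, with 0 to 12 when 1 library was left out. All genes called there (3716) ran from 376 to 10505, with 6059 for all 12 libraries and 1863 for the replicate block. The numbers do not pair the WT libraries with the others (same-number r of 0.229, -0.0206, 0.302 and 0.197 for Eμ-Myc and of 0.393, -0.381, 0.0749 and 0.0314 for the knockout), so calls lost under that block are not read as weaker effects; the block ended the call of Gss between Eμ-Myc and WT (adjusted p = 0.0600) and the calls of Mat2a (0.0644), Adh5 (0.0662) and Gpx7 (0.0811) in the knockout against WT. The cause of these changes was not tested.

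Reversed log2 changes are listed for the members, Myc and Ggt1, none of them called in the reported fit. In the knockout against Eμ-Myc, Chac2 had 0.0053 with median-of-ratios scaling and 0.0076 with total coverage scaling. Quality weights gave Gclm 0.28, Gpx4 0.16, Chac2 0.52 and Ggt1 -0.20. Without knockout replicates 1 and 2, Gclm had 0.31, Gpx4 0.17 and Chac2 0.64. Without replicates 3 and 4, Gclc had -0.44, Gss -0.21, Gsr 1.00, Chac1 0.76 and Myc -0.53. Other listed genes and regulators reversed too and are not all given, such as Anpep (0.22) and Cbs (-0.54) without replicates 3 and 4. In the knockout against WT the reversed members were Gpx1 (-0.084) with total coverage scaling and Gpx4 (0.077) without knockout replicates 1 and 2. Without replicates 3 and 4 they were Chac1 (0.18) and Chac2 (-0.34). Other listed genes and regulators reversed there as well, such as Esd (-0.022) and Keap1 (-0.082) without replicates 3 and 4. With 1 library left out, the members and Myc that changed sign had these ranges. In Eμ-Myc against WT they were Chac1 -0.83 to 0.067 and Gpx4 -0.19 to 0.00029. In the knockout against Eμ-Myc they were Gclc -0.15 to 0.17, Gclm -0.18 to 0.10, Gss -0.0031 to 0.22 and Gsr -0.84 to 0.18. Also there, Gpx4 ran from -0.24 to 0.012, Chac1 from -0.56 to 0.079, Chac2 from -0.28 to 0.25 and Myc from -0.12 to 0.44. In the knockout against WT, Gpx1 ran from -0.038 to 0.21. The log2 ratio of Gclm to Gclc in the knockout against Eμ-Myc ran from -0.10 to 0.045 (0.045 without Eμ-Myc replicate 2), and that of Chac2 to Chac1 from -0.33 to 1.08 (-0.28 and -0.33 without knockout replicates 3 and 4).

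Total coverage scaling moved the median of all genes by -0.18 in Eμ-Myc against WT and by -0.15 in the knockout against WT, and the calls in the former split into 3057 higher and 4227 lower, against 3873 and 3143 as reported. Depth is unknown, and Chac1 and Slc7a11 are near the lowest values the files hold.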
